A study of Mus musculus with 6 samples.

Results

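The genes described here are 10 of the WNT ligand genes of the mouse, Wnt2, Wnt2b, Wnt4, Wnt5a, Wnt6, Wnt7a, Wnt7b, Wnt9a, Wnt10a and Wnt11, followed by source cell in pancreatic tumours. They were taken by symbol, and all 10 are among the 32285 genes counted in each of the 6 single-cell libraries. The tumours arose in genetically engineered mice that carry P53LSL.R172H/+ and Pdx1-Cre, where Cre made in pancreatic epithelium switches on the mutant p53 allele, and mice of both groups share one genotype. One group of 3 mice received IPI-926, a Smoothened inhibitor, daily by oral gavage at 40 mg/kg, labelled as 2 days of treatment. The other 3 mice received the vehicle, hydroxypropyl-beta-cyclodextrin at 5% w/w in water. Each tumour was collected 2 hours after the last dose and gave 1 library made with the Single Cell 3' v3 kit of 10x Genomics. The labels give no age and no pairing of mice.

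WNT ligands are secreted proteins that carry a lipid, added by Porcn, and reach the cell surface with the carrier Wls. They bind Frizzled receptors together with Lrp5 or Lrp6 to stabilise beta-catenin, or with Ror and Ryk receptors to act on cell shape and polarity. They act mostly on cells close to the source, so the class of cell that makes a ligand sets where its signal can arise. In pancreatic tumours epithelial cells and the fibroblasts around them are both known sources of WNT ligands, and the fibroblasts are also the cells that respond to Hedgehog ligands through Smoothened.

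The libraries held between 100810942 and 174929328 UMIs, where a UMI is 1 counted RNA molecule. After filters 49797 cells were kept, 39606 of them in clusters named by marker genes, and the 10 ligands and the other WNT and Hedgehog genes described here took no part in the clustering. Levels are given as CPM, the UMIs of a gene per 1000000 UMIs of the summed cells of a class in a library, with SD and n over libraries. IPI-926 replicate 3 stood apart: 1 of the 2 fibroblast clusters, number 33 with 2076 cells, came wholly from it, and 777 of its 827 ductal cells lay in a ductal cluster of which it gave most cells. For most ligand statements that rest on these clusters, the value without them is also given. With cluster 33 left out, the fibroblasts of IPI-926 replicate 3 are 55 cells, at 1.15 CPM of Wnt2, 194 of Wnt4, 83.7 of Wnt5a, 2.29 of Wnt6, 9.17 of Wnt9a and 6.88 of Wnt11. No library shared more than 59 cell barcodes with another. The classes are called ductal epithelial-like, fibroblast-like, mesothelial-like and so on, after markers and not after lineage. The mesothelial-like class also carried fibroblast markers, at a summed level of 11908 to 26215 CPM beside 1322 to 6570 CPM of mesothelial markers such as Msln, Upk3b and Lrrn4.

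The ligands divided by source cell. Wnt7a, Wnt7b and Wnt10a had their highest level, among classes present in all 6 libraries, in ductal epithelial-like cells. Wnt2, Wnt6, Wnt9a and Wnt11 had theirs in fibroblast-like cells, and Wnt2b, Wnt4 and Wnt5a in mesothelial-like cells, each by mean level. For Wnt2b and Wnt9a the order of these 2 stromal classes is not settled: fibroblasts exceeded mesothelial cells in 3 and in 2 of 6 libraries, and the medians of Wnt9a were 8.46 CPM in fibroblasts and 12.8 in mesothelial cells. Of all UMIs of Wnt7a, 93.9% were in ductal cells, and of all UMIs of Wnt2, 71.3% were in fibroblasts. Without the 1-library clusters fibroblasts held 2339 of 3954 Wnt2 UMIs. Mesothelial cells led for Wnt2 in vehicle replicate 1 and IPI-926 replicate 2, with 56.9% and 68.1% against 22.8% and 9.66% in fibroblasts. In the other libraries, with all clusters, fibroblasts gave 66.2% to 94.1%. Wnt4 was spread over mesothelial cells with 49.1%, ductal cells with 26.2% and fibroblasts with 16.5% of its UMIs. Vehicle replicate 1 gave 10262 of the 16584 mesothelial UMIs, and without it the shares were 29.4%, 37.3% and 23.0%, with ductal cells first. These shares weigh libraries and classes by their numbers of cells and UMIs, so they describe the cells sampled. Dissociation can also lose cell types unequally, which was not tested.

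**Figure D1:**
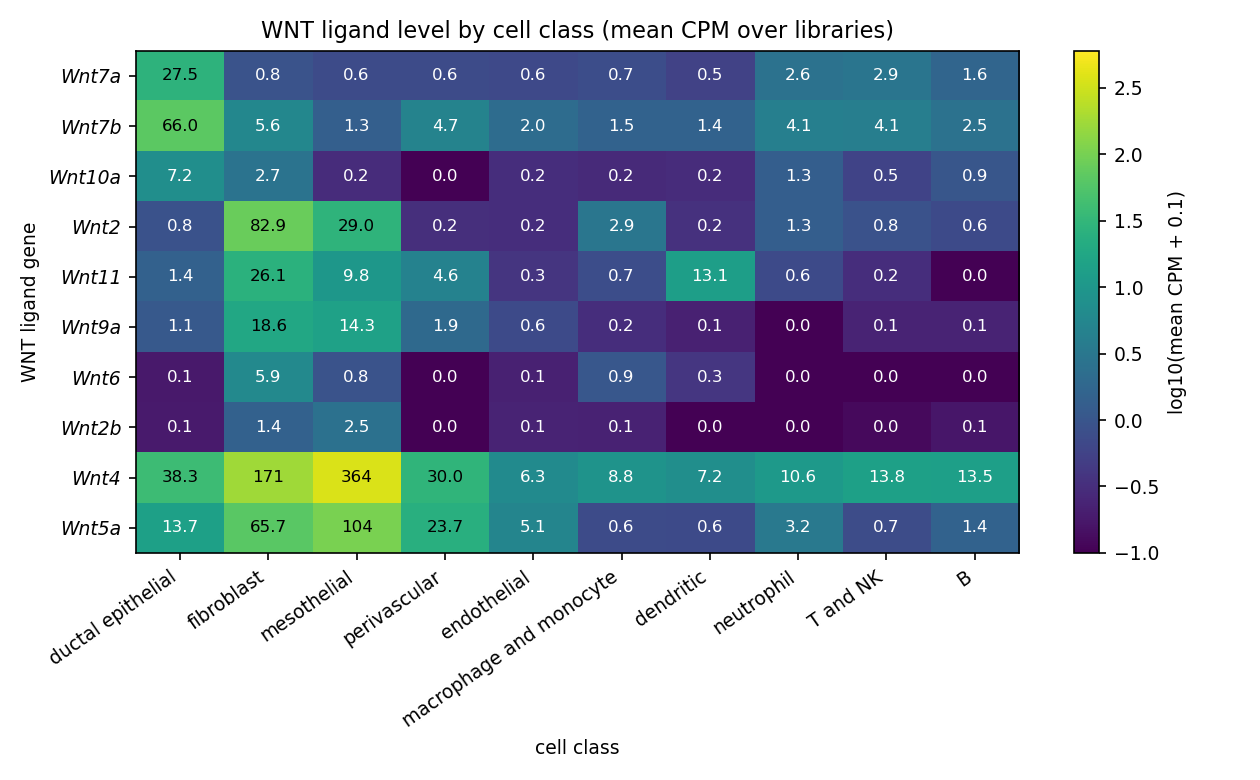
Mean level of each WNT ligand gene (rows) in each cell class (columns), as CPM averaged over the libraries with at least 20 cells of the class, with colour on a log10(CPM + 0.1) scale. Wnt7a and Wnt7b peak in the ductal epithelial column at 27.5 and 66.0 CPM, Wnt2 peaks in the fibroblast column at 82.9 CPM, and Wnt4 peaks in the mesothelial column at 364 CPM.

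Promoter sequence is shown for 4 ligands that differ in source. Wnt7a was read mainly in ductal cells, and Wnt2 and Wnt6 had their highest mean level in fibroblasts. Wnt11 was read in fibroblasts and dendritic cells. The sequences are from RefSeq on GRCm38.p6 and hold only bases before both the RefSeq start and the GENCODE vM21 gene start, 5′ to 3′ on the strand of the gene. Capitals mark the GC box letters GGGCGG, the TCF/LEF letters CTTTGAT, the TATA letters TATAAA and the GLI letters TGGGTGGTC, read on both strands, and neighbouring matches can overlap. Wnt7a is at chr6:91411364-91411603 on the minus strand and Wnt2 at chr6:18030586-18030695 on the minus strand. Wnt6 is at chr1:74771642-74771891 and Wnt11 at chr7:98834862-98835111, both on the plus strand.
Wnt7a: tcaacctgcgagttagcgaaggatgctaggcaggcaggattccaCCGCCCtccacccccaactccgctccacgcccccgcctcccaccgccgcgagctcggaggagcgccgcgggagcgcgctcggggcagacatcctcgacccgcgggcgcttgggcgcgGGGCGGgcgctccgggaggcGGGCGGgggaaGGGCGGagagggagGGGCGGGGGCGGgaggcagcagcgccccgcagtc
Wnt2: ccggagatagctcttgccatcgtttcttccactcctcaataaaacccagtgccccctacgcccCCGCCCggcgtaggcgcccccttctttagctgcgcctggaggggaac
Wnt6: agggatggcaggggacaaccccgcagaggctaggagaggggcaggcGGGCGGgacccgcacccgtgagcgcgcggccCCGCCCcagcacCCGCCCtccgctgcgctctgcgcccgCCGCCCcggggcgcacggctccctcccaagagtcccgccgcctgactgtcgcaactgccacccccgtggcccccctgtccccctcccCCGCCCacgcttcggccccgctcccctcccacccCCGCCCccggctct
Wnt11: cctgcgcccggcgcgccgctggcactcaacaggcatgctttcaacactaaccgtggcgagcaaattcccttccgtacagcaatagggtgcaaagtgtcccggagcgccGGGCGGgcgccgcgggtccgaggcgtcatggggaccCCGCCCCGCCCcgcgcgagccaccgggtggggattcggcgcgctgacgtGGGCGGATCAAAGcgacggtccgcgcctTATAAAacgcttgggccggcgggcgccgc

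Of the 10 ligands 7 had a promoter entry, 8 promoters in all, and motifs were counted in the 250 bases before each RefSeq start. The first of the 2 Wnt11 promoters held both a TCF/LEF match, the letters bound by the nuclear factors of the beta-catenin pathway, and a TATA match. Over all 32851 promoters of the same length 3.21% held the TCF/LEF letters and 12.4% the TATA letters. No promoter of the ligands held the GLI letters, which 0.225% of all promoters held, and this says only that these letters are not in this window. GC boxes were in 7 of the 8 promoters, 8 of them in that of Wnt4 and 6 each in those of Wnt6 and Wnt7a, against 32.7% of all promoters with at least 1. GC content was 56.8% in the second Wnt11 promoter, 63.6% in that of Wnt2 and up to 85.2% in that of Wnt4, beside a median of 52.4% over all promoters.

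Wnt7a and Wnt7b, close paralogs known for signalling through beta-catenin, marked the ductal epithelial-like cells. Wnt7b was at 44.5, 66.9 and 52.7 CPM in the ductal cells of vehicle replicates 1 to 3 and at 101, 88.3 and 43.0 CPM in those of IPI-926 replicates 1 to 3. Its lowest ductal value, 43.0 CPM, was above the highest value of every other class present in all 6 libraries, 21.7 CPM in the fibroblasts of IPI-926 replicate 3. Without the clusters that this library led, its ductal cells had 24.7 CPM and the highest fibroblast value was 4.94 CPM. Wnt7a was at 20.9, 30.1 and 24.7 CPM in vehicle and 44.7, 22.4 and 22.0 CPM in IPI-926 ductal cells. Mesothelial, endothelial, perivascular and macrophage classes had means of 0.575 to 0.680 CPM of Wnt7a, and T and NK cells 2.87 ± 3.13 CPM (SD, n = 6) from 11 UMIs. Of ductal cells 36.3% on average had a Wnt7a UMI at full depth and 2.46% after thinning each cell to 1000 UMIs, against 0.74% and 0.11% of T and NK cells. Median depth was 24804 UMIs in ductal cells and 2528.5 in T and NK cells, so the full-depth shares compare unequal depths.

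Wnt10a, a ligand known for its part in teeth, hair and other skin appendages, was also mainly ductal but varied far more between tumours. Its ductal level was 1.44, 21.0 and 5.36 CPM in vehicle replicates and 8.01, 6.63 and 0.663 CPM in IPI-926 replicates, the last from 6 UMIs. The highest and the second lowest value were both in vehicle tumours, and the groups overlapped. Fibroblast-like cells had 2.68 ± 2.90 CPM (SD, n = 6), led by IPI-926 replicate 3 at 7.66 CPM. Without the 1-library clusters the fibroblast mean was 1.40 ± 1.72 CPM. Plasma-like cells reached 17.8 CPM in vehicle replicate 1, but from 17 UMIs in all in 3 libraries.

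The ductal ligands also differed between ductal states within the same tumour. Cluster 17, led by the gastric mucous genes Gkn3, Gkn1, Tff2 and Muc6, and cluster 0, led by Csf2, Krt17 and Lama3, both had at least 20 cells in 5 libraries. Wnt7b in cluster 0 was at 144, 116 and 87.1 CPM in vehicle replicates 1 to 3 and 99.1 and 233 CPM in IPI-926 replicates 1 and 2. In cluster 17 of the same libraries it was at 18.6, 34.3, 23.3, 56.4 and 66.5 CPM, in that order. Cluster 0 was thus higher in 5 of 5 libraries, by 1.76 to 7.75 times. Wnt7a was higher in cluster 0 in 5 of 5 libraries as well, by 1.92 to 6.59 times, and so was Wnt10a, by 2.43 to 7.29 times in the 4 libraries with more than 3 UMIs on both sides. 

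Wnt4 went the other way. It was at 12.6, 15.1 and 9.81 CPM in cluster 0 of vehicle replicates 1 to 3 and at 6.39 and 23.5 CPM in that of IPI-926 replicates 1 and 2. Cluster 17 had 26.0, 104 and 13.2 CPM in vehicle and 24.8 and 96.3 CPM in IPI-926, so cluster 0 was lower in 5 of 5 libraries. Of these, 12.6, 9.81, 6.39 and 13.2 CPM lie within the 6.27 to 13.8 CPM that classes such as B cells and neutrophils averaged, a level not read here as expression. Wnt5a had no common direction, with cluster 0 higher in 3 of the 5. A further ductal cluster, number 2, was higher than cluster 17 in Wnt7b, Wnt7a and Wnt10a in 5 of 5 libraries too, and lower in Wnt4 in 4 of 5. Median depth was 22394 UMIs a cell in cluster 0 and 33352 in cluster 17, and the clusters were made from genes of the same cells, so these are descriptions with no test.

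**Figure D2:**
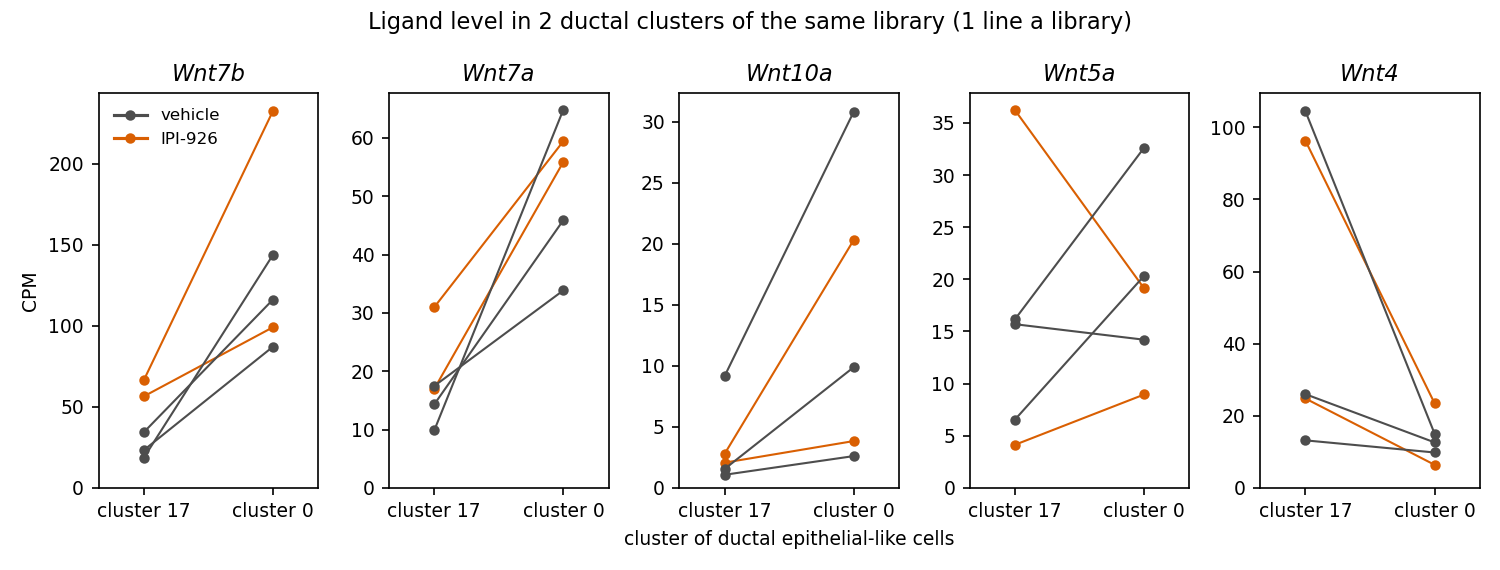
Level in CPM of 5 ligands in ductal cluster 17 and ductal cluster 0 of the same library, 1 line for each of the 5 libraries with at least 20 cells in both, coloured by treatment. Every line rises for Wnt7b, Wnt7a and Wnt10a, every line falls for Wnt4, and those of Wnt5a cross.

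Wnt2, a ligand of mesenchyme that signals through beta-catenin, was read mainly in the stroma. Fibroblast-like cells had 102, 11.4 and 147 CPM in vehicle replicates 1 to 3 and 171, 37.4 and 27.5 CPM in IPI-926 replicates 1 to 3. The spread was wide in both groups and they overlapped. Vehicle replicate 2 was the lowest with all clusters, and IPI-926 replicate 3, at 1.15 CPM from 1 UMI, without cluster 33. Mesothelial-like cells had 27.9, 24.8 and 38.1 CPM in vehicle and 35.9, 43.2 and 3.99 CPM in IPI-926 replicates. Fibroblasts exceeded mesothelial cells in 4 of 6 libraries, and in 3 of 6 without cluster 33, a difference within the spread between tumours. Perivascular cells, which also support vessels in the stroma, had 1 Wnt2 UMI in all 6 libraries together. That is under the 3 counts which the text takes as its floor, 0.865 CPM over the class.

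Wnt5a and Wnt11, both known for beta-catenin-independent signalling and cell polarity, differed in how far they reached. Wnt5a varied little between the fibroblasts of different tumours, at 74.5, 66.2 and 69.7 CPM in vehicle and 67.3, 73.9 and 42.6 CPM in IPI-926 fibroblasts. Its lowest fibroblast value was above the highest perivascular value, 37.7 CPM. Mesothelial cells had 104 ± 52.9 CPM (SD, n = 6), perivascular cells 23.7 ± 14.0 CPM and ductal cells 13.7 ± 11.6 CPM. Mesothelial and fibroblast ranges overlapped, and so did perivascular and ductal ranges. Within ductal cells Wnt5a ranged from 0.569 CPM in IPI-926 replicate 1 to 32.2 CPM in IPI-926 replicate 2, while the 3 vehicle tumours lay between 12.3 and 19.4 CPM.

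Wnt11 in fibroblasts was at 28.9, 18.5 and 56.3 CPM in vehicle and 27.7, 17.1 and 8.21 CPM in IPI-926 replicates. The IPI-926 values lay towards the lower end, but the groups overlapped. Mesothelial cells held 9.82 ± 1.46 CPM (SD, n = 6), with little spread between tumours. Dendritic-like cells, led by Ccl17, Ccl22 and Ccr7, came between the fibroblasts and the mesothelial cells on average. They had 20.9 and 9.93 CPM in vehicle replicates 1 and 2 and 17.5, 15.4 and 1.86 CPM in IPI-926 replicates 1 to 3, from 71 UMIs in 5 libraries. Their summed fibroblast markers were 666 CPM in IPI-926 replicate 3, whose dendritic Wnt11 rests on 3 UMIs, and ranged from 24 to 223 CPM in the other 4. Fibroblasts of that library also had the lowest fibroblast Wnt11. The part of fibroblast RNA in the dendritic values was not tested. T and NK cells averaged 0.217 CPM of Wnt11 and B cells had none.

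Wnt9a, known from joint formation, and Wnt6, known from the epithelial ordering of somites, were low-level stromal ligands. Wnt9a was at 34.3, 6.41 and 51.6 CPM in vehicle fibroblasts and 10.5, 4.87 and 4.04 CPM in IPI-926 fibroblasts. Vehicle replicates 1 and 3 were above every IPI-926 value and vehicle replicate 2 was among them. Mesothelial cells had 14.3 ± 8.30 CPM of Wnt9a (SD, n = 6) and neutrophils none in 13296914 UMIs, which allows up to 0.226 CPM over that class. Wnt6 was at 15.7, 4.06 and 8.15 CPM in vehicle fibroblasts and 1.86, 5.69 and 0.107 CPM in IPI-926 fibroblasts, from 166 UMIs in all. Wnt2b, a paralog of Wnt2, was scarce too, with 303 UMIs in fibroblasts at 0.49 to 3.06 CPM and 93 UMIs in mesothelial cells at 0.199 to 5.98 CPM. IPI-926 replicate 3 gave 257 of the 303. Without the 1-library clusters fibroblasts had 47 UMIs at 0.49 to 1.66 CPM. The lowest fibroblast and the lowest mesothelial value each rest on 1 UMI.

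Wnt6 and Wnt10a lie next to each other on chromosome 1 on the same strand, with 6193 bases between the GENCODE vM21 end of Wnt6 at 74785322 and the start of Wnt10a at 74791516. The neighbours differed in their main source. Wnt10a had 65.3% of its UMIs in ductal cells and 22.0% in fibroblasts, where IPI-926 replicate 3 gave 643 of the 669. Wnt6 had 4.78% in ductal cells, 46.6% in fibroblasts and 28.4% in macrophages and monocytes. Macrophages and monocytes led for Wnt6 in IPI-926 replicates 2 and 3, with 53.2% and 72.3% against 14.9% and 19.1% in fibroblasts. Fibroblasts led in the other libraries. Over 12 classes the Pearson correlation of their levels, as log2(CPM + 5), was 0.065. Points of that correlation share libraries, and it is given as a description.

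Wnt4, known for its part in kidney and reproductive tract development, led in mesothelial-like cells. Its level there was 548, 355 and 318 CPM in vehicle and 401, 421 and 139 CPM in IPI-926 replicates. Fibroblasts had 313, 118 and 182 CPM in vehicle and 179, 231 and 5.94 CPM in IPI-926 replicates, and mesothelial cells were higher in 6 of 6 libraries. The fibroblast value of IPI-926 replicate 3 comes from cluster 33, and without it that library had 194 CPM, above its 139 CPM in mesothelial cells, which were then higher in 5 of 6. Of mesothelial cells 83.7% had a Wnt4 UMI on average. Ductal cells ranged from 5.24 to 82.7 CPM, both ends in IPI-926 tumours.

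Immune and endothelial classes had 6.27 to 13.8 CPM of Wnt4 on average, plasma and acinar cells aside, a like low level in classes as different as B cells, neutrophils and endothelial cells. Values at that level are not read here as expression, among them the 5.24 CPM of IPI-926 replicate 1 ductal cells and the 5.94 CPM of IPI-926 replicate 3 fibroblasts. Perivascular cells had 4.91, 7.85 and 24.6 CPM in vehicle and 18.8, 116 and 8.23 CPM in IPI-926 replicates. The 116 CPM stood apart from the rest and came from 49 cells. Summed mesothelial markers in those cells were 69 CPM, inside the 29 to 76 CPM of the other 5 libraries. The part of mesothelial RNA in that value was not tested.

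**Figure D3:**
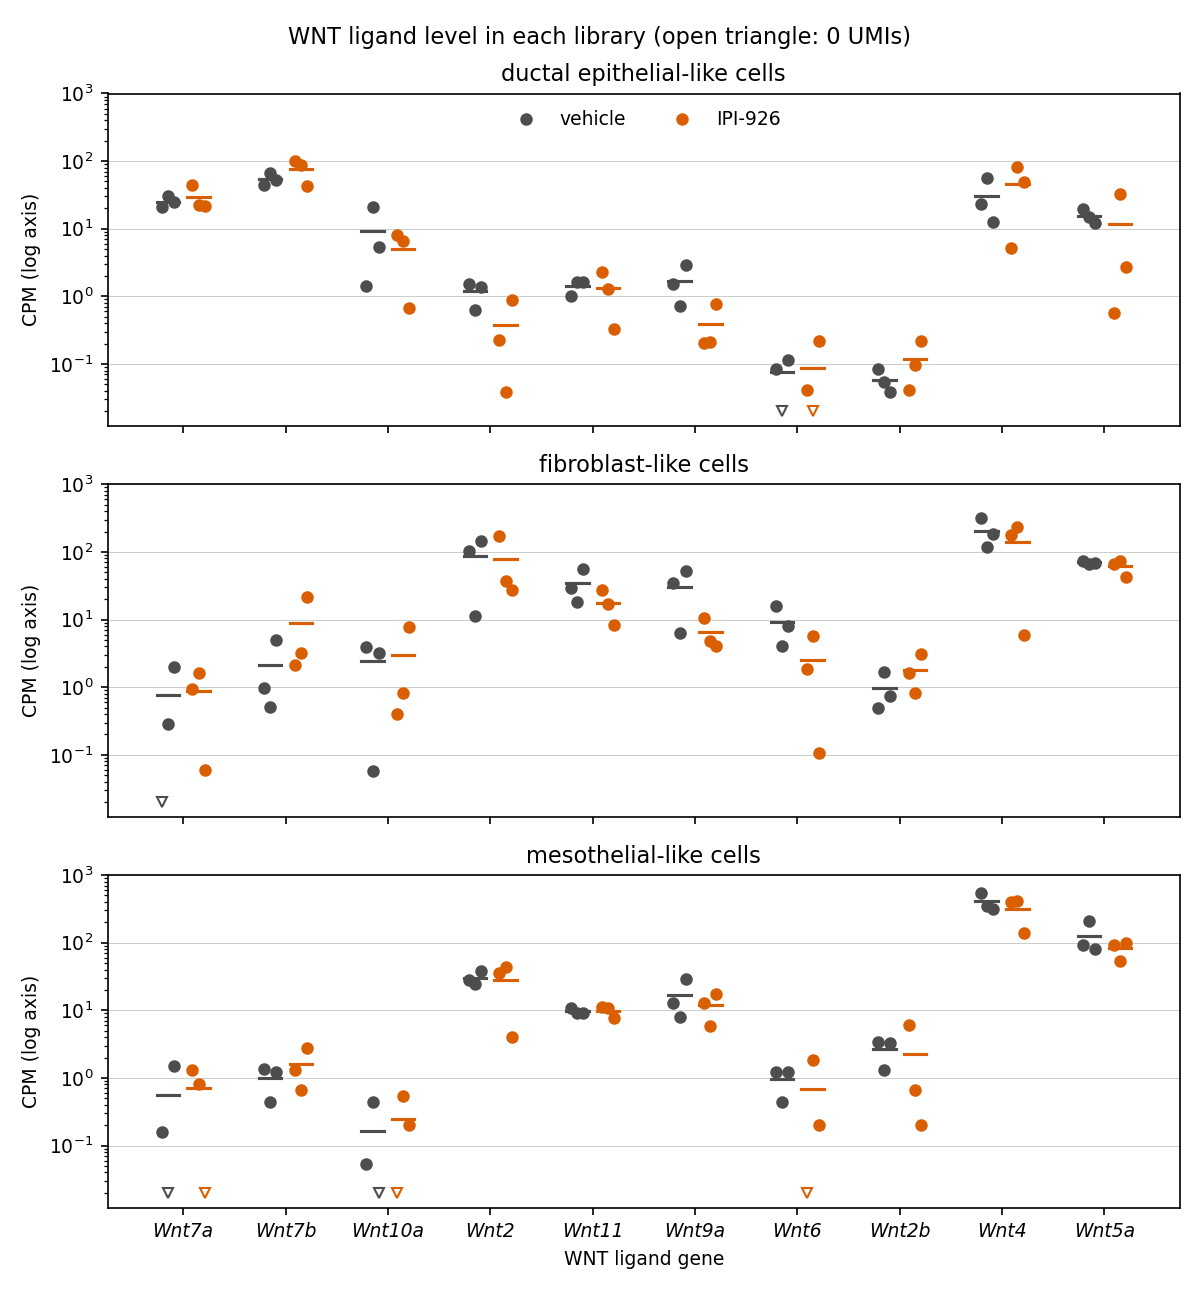
Level of each ligand in each library on a log axis in CPM, for ductal epithelial-like, fibroblast-like and mesothelial-like cells, with vehicle libraries in grey, IPI-926 libraries in orange, bars at the group means and open triangles for 0 UMIs. Wnt4 in fibroblasts sits between 118 and 313 CPM in 5 libraries and at 5.94 CPM in IPI-926 replicate 3, and Wnt5a in fibroblasts stays between 42.6 and 74.5 CPM in all 6.

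Differences between source classes were tested with edgeR's quasi-likelihood test on the sums of 6 classes in 6 libraries, with library as a block, and 8 of the 10 ligands passed the filter on low counts, not Wnt2b and Wnt6. Against ductal cells 5 of the 8 were higher in fibroblasts, where 28.9% of 13829 genes were, and 2 were lower, where 28.7% were. Wnt2 was higher by 6.65 on the log2 scale (SE 0.73, Benjamini-Hochberg adjusted p = 8.2e-09), Wnt11 by 4.14 (SE 0.43) and Wnt9a by 4.04 (SE 0.44). Wnt5a was higher by 2.52 (SE 0.59, adjusted p = 5.4e-04 in the same edgeR fit), and was not called with the IPI-926 libraries alone, at 2.97 with an adjusted p of 0.056. Wnt4 was higher by 1.94 (SE 0.61, edgeR adjusted p = 0.0081), a call that did not hold when vehicle replicate 1 was left out (adjusted p = 0.059), when vehicle replicate 3 was (adjusted p = 0.063), or with the IPI-926 libraries alone (0.93 on the log2 scale, adjusted p = 0.53). Without the 1-library clusters the Wnt4 difference was 2.89.

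On the ductal side Wnt7a was lower in fibroblasts by a log2 difference of -5.99 (SE 0.65, edgeR adjusted p = 6.1e-09) and Wnt7b by -4.06 (SE 0.54, adjusted p = 2.5e-07). Each of these 2 held its direction and its call under every alternative run. The difference for Wnt10a was -1.22 (SE 0.88, edgeR adjusted p = 0.24), and it passed at -2.45 without IPI-926 replicate 3 (adjusted p = 0.018). Both the Wnt7b and the Wnt10a values contain the fibroblasts of cluster 33. With the 1-library clusters left out Wnt10a did not pass the filter on low counts.

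Between fibroblasts and mesothelial cells fewer ligands differed: 3 of the 8 were higher in fibroblasts, where 8.7% of genes were, and none was lower, where 9.35% were. These were Wnt10a by 3.58 (SE 1.10, edgeR adjusted p = 0.024), Wnt7b by 1.82 (SE 0.61, adjusted p = 0.036) and Wnt11 by 1.21 (SE 0.40, adjusted p = 0.030). None of the 3 calls was stable over the alternatives run. The call of Wnt7b, fibroblast minus mesothelial, was lost in 8 of 13: without the 1-library clusters at 0.37 with an edgeR adjusted p of 0.68, at resolution 2 at 1.63, thinned to 2000 UMIs at 1.09, with vehicle or IPI-926 libraries alone at 0.52 and 2.51, and without vehicle replicate 3, IPI-926 replicate 2 or IPI-926 replicate 3 at 1.80, 1.71 and 0.83. That of Wnt10a, fibroblast minus mesothelial, was lost in 5 of 11: with vehicle or IPI-926 libraries alone at 3.92 and 3.16, and without vehicle replicate 1, vehicle replicate 3 or IPI-926 replicate 3 at 2.94, 3.33 and 2.50. That of Wnt11, fibroblast minus mesothelial, was kept without the 1-library clusters, at 1.26, and lost in 5 of 12: with doublets kept at 1.19, with IPI-926 libraries alone at 0.69, and without vehicle replicate 1, vehicle replicate 3 or IPI-926 replicate 1 at 1.18, 0.90 and 1.18. Wnt4 was at -1.22 (SE 0.56) and Wnt2 at 1.33 (SE 0.59), with edgeR adjusted p of 0.14 and 0.12, and Wnt2 was called when thinned to 2000 UMIs, at 1.44 with an adjusted p of 0.038. At an unadjusted p under 0.05, of the ligands not called higher, Wnt4 alone was lower in fibroblasts, and Wnt2 alone was higher.

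Against perivascular cells 4 of the 8 ligands were higher in fibroblasts, where 12.7% of genes were: Wnt2, Wnt4, Wnt9a and Wnt11. With IPI-926 libraries alone Wnt4, fibroblast minus perivascular, was at 1.63 and Wnt9a, fibroblast minus perivascular, at 2.46, neither of them called. None was lower, where 8.27% of genes were. Against endothelial cells 6 were higher, where 27.4% of genes were, and none was lower, where 22.3% were. They were the same 4 with Wnt5a and Wnt10a. Of these Wnt10a, fibroblast minus endothelial, was at 3.93 on the log2 scale and lost its call in 5 of 11 alternatives: with vehicle or IPI-926 libraries alone at 4.27 and 3.33, and without vehicle replicate 1, vehicle replicate 3 or IPI-926 replicate 3 at 3.44, 3.59 and 3.18. Against macrophages and monocytes 7 were higher, where 30.4% of genes were, and none was lower, where also 30.4% were. Wnt7a was the one not called. Among them Wnt7b, fibroblast minus macrophage and monocyte, was at 1.33 on the log2 scale and lost its call in 7 of 13 alternatives: at resolution 2 at 1.26, thinned to 2000 UMIs at 1.24, without the 1-library clusters at 0.13, with vehicle or IPI-926 libraries alone at 0.28 and 1.93, and without vehicle replicate 3 or IPI-926 replicate 3 at 1.30 and 0.12. Wnt10a, fibroblast minus macrophage and monocyte, was lost with vehicle libraries alone, at 3.24 with an adjusted p of 0.098. Wnt5a was 6.35 above macrophages on the log2 scale (SE 0.72, edgeR adjusted p = 9.8e-09) and 1.70 above perivascular cells (SE 0.64, adjusted p = 0.060). That last difference passed without the 1-library clusters, at 1.82 with an edgeR adjusted p of 0.019.

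The 2 fibroblast clusters had unlike sets of ligands. Cluster 19, 1706 cells from all 6 libraries, had 158 CPM of Wnt4, 70.5 of Wnt2, 68.1 of Wnt5a and 25.5 of Wnt11. Cluster 33, led by Crabp1 and Cthrc1 and found in IPI-926 replicate 3 alone, had 3.97, 27.8, 42.1 and 8.22 CPM of these. It had 21.9 CPM of Wnt7b against 1.57 CPM in cluster 19, from 1819 and 52 UMIs, and 7.74 CPM of Wnt10a against 0.78 CPM. Ductal cells of that library had 43.0 CPM of Wnt7b but 0.663 CPM of Wnt10a, the latter from 6 UMIs. Wnt10a was thus read at a higher level in its fibroblasts than in its ductal cells. These ductal cells had a median of 3428 UMIs, against 21898 to 49693 in the other libraries. The part of depth in that order was not tested. Ductal markers in the fibroblasts of this library were at a summed 132 CPM, within the 127 to 580 CPM of the other 5. The part of ductal RNA in these values was not tested. Mouse and cluster cannot be told apart here.

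**Figure D4:**
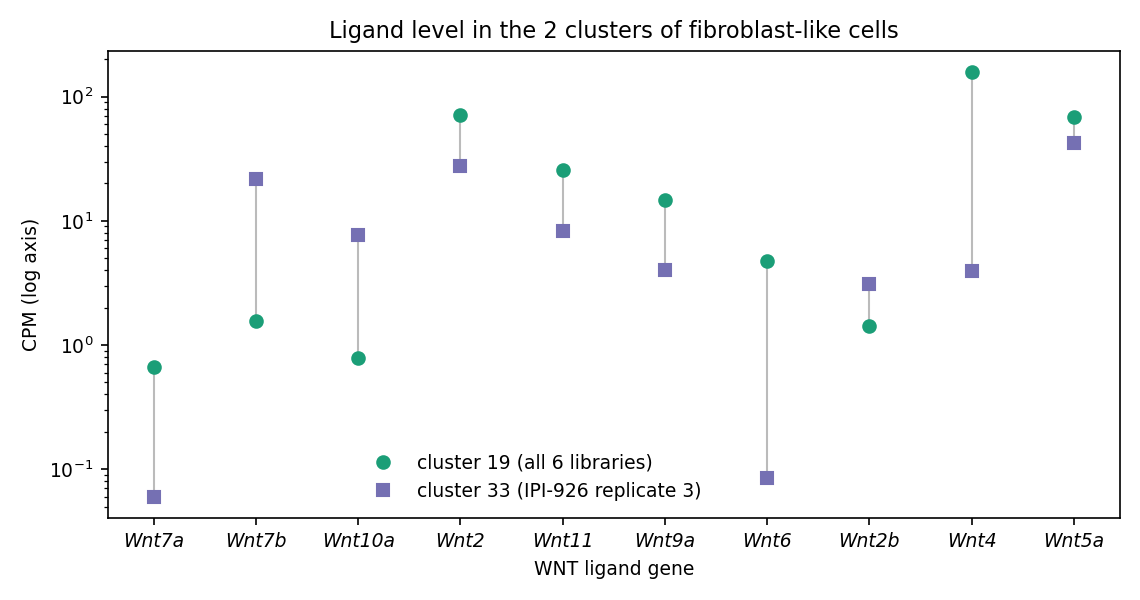
Level of each ligand on a log axis in CPM in the 2 clusters of fibroblast-like cells, cluster 19 with cells of all 6 libraries (circles) and cluster 33 of IPI-926 replicate 3 (squares). Wnt7b and Wnt10a are higher in cluster 33, at 21.9 and 7.74 CPM, while Wnt4 is at 158 CPM in cluster 19 and 3.97 CPM in cluster 33.

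Clustered again at resolution 0.5, fibroblasts of cluster 19 fell into groups with different ligands. A sub-cluster of 426 cells led by Cxcl13, C3 and Clec3b had 249 CPM of Wnt4, 41.1 of Wnt2 and 4.1 of Wnt11. IPI-926 replicate 1 gave 153 of its 238 Wnt2 UMIs, at 97.1 CPM, and vehicle replicates 1 and 2 had 16.4 and 18.0 CPM. One of 452 cells led by Abi3bp and Igf2, 345 of them from vehicle replicate 3, had 220 CPM of Wnt4, 138 of Wnt2, 51.4 of Wnt11 and 48.1 of Wnt9a. One of 472 cells led by Gzme and Col11a1, 442 of them from vehicle replicate 2, had 115 CPM of Wnt4 and 10.4 of Wnt2. The highest Wnt2, 201 CPM, was in a group of 181 cells led by Star and Pappa2, 140 of them from IPI-926 replicate 1, with 43.2 CPM of Wnt11. A group of 123 cells led by the neutrophil markers S100a9, S100a8 and Retnlg had 101 CPM of Wnt2. That was 209 CPM in IPI-926 replicate 1 and 5.02 CPM in vehicle replicate 2. In vehicle replicate 1 both of the first 2 were present, and the second had 132 CPM of Wnt2 against 16.4 CPM in the first, 45.1 against 0 CPM of Wnt11 and 32.9 against 7.4 CPM of Wnt6. Wnt5a varied less, at 53.5 and 82.8 CPM. Groups made of IPI-926 replicate 3 alone differed too, from 0.841 to 38.3 CPM of Wnt7b and from 13.5 to 103 CPM of Wnt5a. Both low ends are from 1 group of 62 cells, with 1 UMI of Wnt7b and 16 of Wnt5a. The 103 CPM is from 89 cells whose leading genes included Neat1 and Malat1. The highest Wnt7b was in a group of 643 cells, with 1461 UMIs. A group of 465 cells, at 17.9 CPM of Wnt7b, was led by Cd74, C1qa, C1qb and Lyz2, the last 3 of them macrophage markers. These groups are clusters of the cells measured, so the values have no test.

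Macrophages and monocytes had few ligand UMIs, and 2 ligands are described here. Wnt4 and Wnt7b had 868 and 148 UMIs in them, more than the 101 of Wnt6. Wnt2 was at 8.7, 0.449 and 2.7 CPM in vehicle and 0.299, 4.51 and 0.743 CPM in IPI-926 replicates. Of its 251 UMIs 222 were in 1 cluster of 5, number 15, led by Alox15, Marco, Fcna and Prg4. Vehicle replicate 1 gave 94 of them from 542 cells, IPI-926 replicate 2 gave 96 from 622, vehicle replicate 3 gave 22 from 152 and vehicle replicate 2 gave 10 from 182. In this cluster Wnt2 was at 10.5 CPM and Wnt4 at 13.3 CPM, the latter at the level not read here as expression. Pooled over libraries, mesothelial cells had 28.8 CPM of Wnt2 and 432 CPM of Wnt4, and fibroblasts 40.0 and 47.9 CPM. Summed mesothelial and fibroblast markers were 110 and 72.5 CPM in cluster 15. Macrophage cluster 10 had 139 and 121 CPM of them, and 0.177 CPM of Wnt2 from 9 UMIs. The part of RNA from mesothelial cells and fibroblasts in the Wnt2 of macrophages was not tested. Wnt6 was at 0.824, 0.531 and 1.08 CPM in vehicle and 0.748, 1.16 and 1.33 CPM in IPI-926 macrophages, 101 UMIs in all. It had no UMI in neutrophils, T and NK cells or B cells, which allows up to 0.226, 0.29 and 0.836 CPM over each class.

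The effect of the drug on its pathway was read first in Gli1, a transcriptional target of Hedgehog signalling. Gli1 in fibroblasts was at 10.8, 10.8 and 11.9 CPM in vehicle and 0.399, 1.62 and 0.179 CPM in IPI-926 replicates. The IPI-926 values of replicates 1 and 2 rest on 3 and 2 UMIs. Ptch1, the Hedgehog receptor and also a target, was at 39.2, 14.98 and 31.4 CPM in vehicle and 8.25, 8.12 and 2.97 CPM in IPI-926 fibroblasts. In IPI-926 replicate 3 both values come from 2131 fibroblasts, nearly all of them in the cluster found only there. Values without that cluster are not given for Gli1 and Ptch1. The edgeR fold changes were -4.83 (SE 0.77) and -2.15 (SE 0.54) on the log2 scale, with adjusted p = 0.895 for both over 12170 genes.

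No WNT ligand passed the test of IPI-926 against vehicle in any class. In fibroblasts 0 of the 8 ligands tested were called by edgeR, and 0% of 12170 genes were, with 1 ligand and 483 genes at an unadjusted p under 0.05. Ductal cells gave 0 of 8, with 0% of 15110 genes called, and 1 ligand and 502 genes at an unadjusted p under 0.05. Mesothelial cells gave 0 of 6, with 0% of 11724 genes called, and 0 ligands and 452 genes at that unadjusted p. DESeq2 and limma-voom on the same sums called none of the ligands either, although DESeq2 called 35, 63 and 29 genes in these classes.

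The ligand with the smallest unadjusted p was Wnt9a. Its fold change was -2.13 in fibroblasts (SE 0.79, edgeR adjusted p = 0.895) and -2.28 in ductal cells (SE 0.84, edgeR adjusted p = 0.998), where its level was 1.52, 0.709 and 2.9 CPM in vehicle and 0.203, 0.213 and 0.774 CPM in IPI-926. The direction was kept in every alternative run in both classes, between -2.76 and -1.51 in fibroblasts and between -3.13 and -1.62 in ductal cells, and groups overlapped in both. Wnt6 in fibroblasts was at -2.26 (SE 1.33) and Wnt11 at -0.91 (SE 0.57), and both were negative in every alternative run. Wnt7b in fibroblasts was at 2.27 (SE 1.19), and 2.17 ± 1.05 CPM (SD, n = 3) in IPI-926 against 2.15 ± 2.43 CPM in vehicle without the 1-library clusters.

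The other ligands tested in fibroblasts had fold changes smaller than their standard errors. There Wnt2 was at -0.05 (SE 1.01), Wnt4 at -0.53 (SE 1.08), Wnt5a at -0.16 (SE 0.25) and Wnt10a at 0.74 (SE 1.49). Without the 1-library clusters Wnt4 was at 0.03 (SE 0.34) and Wnt5a at 0.14 (SE 0.16), the 2 smallest standard errors of a ligand in that fit. Mesothelial cells gave -0.30 (SE 0.44) for Wnt4, -0.57 (SE 0.41) for Wnt5a, -0.09 (SE 0.73) for Wnt2, -0.45 (SE 0.58) for Wnt9a, -0.86 (SE 1.07) for Wnt2b and 0.06 (SE 0.26) for Wnt11.

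Ductal ligands were at 0.51 (SE 0.37) for Wnt7b, 0.27 (SE 0.38) for Wnt7a, 0.53 (SE 0.92) for Wnt4, -0.47 (SE 1.19) for Wnt5a, -0.80 (SE 1.11) for Wnt10a, -1.85 (SE 1.07) for Wnt2 and -0.057 (SE 0.73) for Wnt11. The tumours did not share ductal states evenly, since 1138 of 1203 ductal cells of IPI-926 replicate 1 were in cluster 2, and the part of this in the fold changes was not tested beyond 1 fit. That fit used only cluster 17, the ductal cluster with at least 20 cells in every library, and was chosen after the data were seen. It called no ligand, and Wnt4 was at -0.08 and Wnt5a at 0.39 there. In that cluster IPI-926 replicates 1 and 3 had only 25 and 39 cells, against 338 to 1248 in vehicle replicates. Those 2 libraries had 36 and 17 UMIs of Wnt4 and 6 and 9 of Wnt5a in it.

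**Figure D5:**
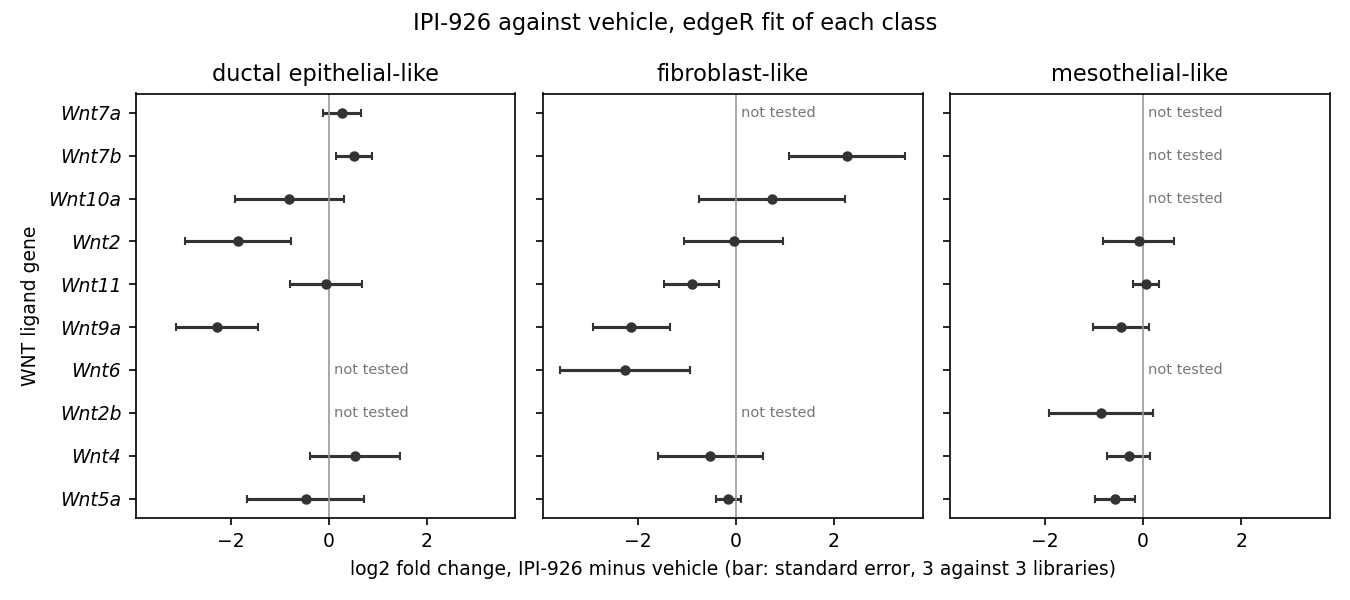
Log2 fold change of each ligand, IPI-926 minus vehicle, in the edgeR fits of ductal epithelial-like, fibroblast-like and mesothelial-like cells, with bars of 1 standard error over 3 against 3 libraries. Wnt9a lies to the left in all 3 panels, at -2.28, -2.13 and -0.45, and ligands below the filter on low counts are marked as not tested.

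The other classes gave the same count of 0. The edgeR test called 0 of 6 ligands in macrophages, 0 of 2 each in perivascular and dendritic cells and 0 of 1 in endothelial cells, with 0% of genes called in each. Wnt4 was the ligand tested in neutrophils and in T and NK cells, and was not called, where 0.0119% and 0.0139% of genes were. No ligand passed the filter in B cells. Among the ligands tested in these classes, Wnt7a in macrophages was the one whose groups did not overlap, with 1.37, 0.694 and 1.08 CPM in vehicle and 0.524, 0.372 and 0.0391 CPM in IPI-926 replicates, a fold change of -1.72 (SE 0.82). The groups did not overlap for 5.25% of the 13066 genes tested in macrophages. Its ductal source in the same libraries was at 20.9 CPM or more, and summed ductal markers in these macrophages were 433, 174 and 422 CPM in vehicle and 170, 214 and 74 CPM in IPI-926 replicates. Their part in the result was not tested.

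Whether fibroblasts responded unlike other classes was tested with limma on the difference between classes within a library. For fibroblasts against ductal cells 0 of 7 ligands passed, and for fibroblasts against mesothelial cells 0 of 5, with 0% of 11666 and of 11241 genes called. The smallest unadjusted p, 0.047, was that of Wnt9a, whose response in fibroblasts minus that in mesothelial cells was -1.53 on the log2 scale (SE 0.64, limma adjusted p = 0.95). The other ligands had unadjusted limma p of 0.079 or more.

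Summed over all kept cells of a library, a ligand's level mixes level per cell with the number of cells of its source. In such sums fewer cells of a type and less RNA per cell cannot be told apart. None of the 10 ligands was called by edgeR, with 0% of 17867 genes called and 0 ligands at an unadjusted p under 0.05. Wnt4 ranged from 13.2 CPM in IPI-926 replicate 3 to 138 CPM in vehicle replicate 1, the library with the most mesothelial cells, 14.4% of its kept cells against 0.71% to 3.35% in the other 5. Wnt6 was the ligand whose groups did not overlap, with 0.761, 0.912 and 0.666 CPM in vehicle and 0.308, 0.517 and 0.32 CPM in IPI-926, a fold change of -0.99 (SE 0.45, edgeR adjusted p = 1.0), where the groups of 7.41% of the 17867 genes did not overlap.

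The rest of the pathway was read from lists named by role. The other 9 WNT ligand genes were scarce: Wnt10b had 865 and Wnt5b 558 UMIs in the libraries and named classes used, and the remaining 7 had 164 or fewer, with none for Wnt3a. Wls, the carrier of WNT ligands, was at 286 CPM in fibroblasts, 267 in mesothelial cells, 195 in perivascular cells and 59.9 in ductal cells on average. The receptors Fzd1 and Ryk were at 241 ± 248 and 212 ± 27.3 CPM in fibroblasts against 16.0 ± 3.86 and 52.6 ± 8.78 CPM in ductal cells (SD, n = 6). Lrp6, a co-receptor, was nearly even, at 65.1 and 56.5 CPM. The secreted antagonist Sfrp1 averaged 1077 CPM in fibroblasts, with a range of 33.05 to 1686 CPM over libraries, 211 in mesothelial cells and 5.05 in ductal cells, and Dkk2 at 229 CPM in fibroblasts and 110 in endothelial cells.

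None of these lists had a gene called by edgeR for IPI-926 against vehicle in fibroblasts or ductal cells. Of 13 Frizzled and co-receptor genes tested in fibroblasts 11 had a negative fold change, with a median of -0.48 beside 0.02 over all genes tested, and 3 had an unadjusted p under 0.05. Over all 12170 genes 6304 had a positive fold change and 483 an unadjusted p under 0.05. Of 7 antagonists tested there 5 were negative with a median of -0.52, and of 13 WNT response genes 5 were negative with a median of 0.07. Wif1, an antagonist that binds WNT ligands, had a fold change of -7.23 (SE 1.52, edgeR adjusted p = 0.895) and Sfrp2 one of 2.66 (SE 0.94, the same adjusted p). Nearly all fibroblasts of IPI-926 replicate 3 lay in the cluster found only in that library. Values without that cluster are not given for the genes of these lists. The part of that cluster in their fibroblast fold changes was not tested. In ductal cells the medians were -0.28 over 15 receptor genes and -0.36 over 15 response genes, beside 0.06 over all genes tested. The 8 ligands tested had medians of -0.34 in fibroblasts and -0.26 in ductal cells.

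Genes most like each ligand were ranked by the Pearson correlation of log2(CPM + 5), averaged over libraries, across 12 classes, among 9872 genes with at least 20 CPM in some class. Wnt7a came closest to Gcnt3, a mucin-type glycosyltransferase, at 0.993, and Wnt7b to Tmem54 at 0.986. For Wnt2 the first were Tenm3 and Col8a2, a collagen, each at 0.984, and for Wnt9a Clec11a at 0.992. Wnt4 came closest to Sbsn at 0.978 and to Il33, an alarmin cytokine, at 0.977. Wnt5a had Medag at 0.978 and Wnt6 had Ptx3, a secreted pattern recognition protein, at 0.981. Wnt11 had Gfra2 at 0.945 and Aldh1a2, an enzyme of retinoic acid synthesis, at 0.931, and Wnt10a had a less close match, Pls1 at 0.885. Among the ligands themselves Wnt7a and Wnt7b were the most alike at 0.98, and Wnt7a and Wnt11 the least at -0.24. Points of these correlations are class means from shared libraries.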

How the data were processed

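Single-cell RNA of 6 tumours was analysed from the authors' deposited raw UMI count matrices. Cell Ranger 6.1.2 is named in the file headers. The build mm10 and Cell Ranger 2.1.1 are listed in the submitters' processing notes, and the annotation is not given in the sources used here. Barcodes under 500 UMIs, under 300 genes or over 20% mitochondrial UMIs were dropped, which left 54911 of 62905, and 5114 simulated-neighbour doublets were removed. Cells were clustered with scanpy 1.11.5 (Leiden, resolution 1), and 28 of 37 clusters were named by marker lists. Counts were summed per library and class, with at least 20 cells, and tested with edgeR 4.0.16 (quasi-likelihood, TMM, filterByExpr, Benjamini-Hochberg, threshold 0.05) in R 4.3.3. DESeq2 1.42.0 and limma 3.58.1 served as alternatives, and limma tested differences in response. The edgeR step was tested on simulated data. The replicate is the mouse, so p-values cover the spread between mice. The members, the lists and the rule to describe every member were chosen with earlier results of these data known. Intervals and the floor of 3 counts cover counting error only. Part of the genotype of the mice is not reported here.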

Additional observations from a re-analysis of the deposited data

Results flagged for a closer look

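2 levels were found in clusters that the comparisons leave out, since no class could be named for them. Wnt4 was at 62.2 CPM in cluster 27, whose 369 cells came to 58.3% from vehicle replicate 3 and whose leading genes included Lcn2, Cp, Ambp, Mmp7 and Onecut1. Wnt7b was at 51.8 CPM in cluster 32, whose 393 cells came mostly from vehicle replicate 1 and whose leading genes included Nrn1, Tnnt2 and Phgdh. Both levels are above the limit that a count of 0 allows, and their part in any treatment difference was not tested.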

How the results depend on the processing

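For IPI-926 against vehicle, 277 of 306 alternative values of 19 ligand results kept direction and call and 29 reversed, none of them past the threshold. For levels between classes, 364 of 410 alternative values of 33 results kept both, 37 lost the call, 4 gained it and 5 reversed. The cause was not tested.

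Reversed fibroblast values were those of Wnt2 with limma-voom (0.26), with equal cells per library (0.061) and with at least 50 cells (0.29), and of Wnt4 (0.031) and Wnt5a (0.14) without 1-library clusters. In ductal cells Wnt10a was at 0.10 thinned to 2000 UMIs a cell, and Wnt4 at -0.082 and Wnt5a at 0.39 in the shared ductal cluster, an alternative chosen after seeing the data. Mesothelial Wnt11 was at -0.030 with limma-voom, -0.24 at resolution 2 and -0.13 with equal cells. Wnt9a, fibroblast minus mesothelial, was at 0.13 without 1-library clusters and 0.72 with vehicle libraries alone. Leaving out 1 library at a time gave, in fibroblasts, -1.38 to 0.57 for Wnt2, -1.07 to 0.062 for Wnt4, -0.28 to 0.063 for Wnt5a and -1.93 to 1.28 for Wnt10a. In ductal cells it gave -0.18 to 1.31 for Wnt4, -3.30 to 0.10 for Wnt5a, -0.24 to 0.51 for Wnt7a and -1.36 to 0.64 for Wnt10a. In mesothelial cells it gave -0.69 to 0.46 for Wnt2, -0.56 to 0.081 for Wnt4, -0.92 to 0.20 for Wnt9a, and for Wnt11 in mesothelial cells it gave -0.054 to 0.24. It gave -0.33 to 0.35 for Wnt9a, fibroblast minus mesothelial.

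Genes called for IPI-926 against vehicle with DESeq2 were 63 in ductal cells, 35 in fibroblasts, 29 in mesothelial, 6 in perivascular, 12 in endothelial cells, 8 in neutrophils, 2 in T and NK cells, 2 in B cells and 116 over all cells. With no filter on low counts they were 1 in mesothelial, 40 in perivascular, 2 in endothelial and 24 in dendritic cells, 49 in neutrophils, 27 in T and NK cells and 24 in B cells. Thinned to 2000 UMIs they were 1 in fibroblasts, 1 in endothelial cells and 0 in B cells. With equal cells they were 1 in perivascular, 1 in endothelial and 0 in B cells. They were 1 in mesothelial cells at resolution 2, 0 in neutrophils with doublets kept, and 0 in T and NK cells and 0 in B cells with limma-voom. Leaving out 1 library gave 0 to 1 in mesothelial, perivascular, macrophage and dendritic cells, 0 to 4 in endothelial cells, 1 to 2 in neutrophils, 0 to 5 in T and NK cells and 0 to 7 in B cells.

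Thinned to 2000 UMIs, where 4 ligands could be tested, 3 were higher and 1 lower in fibroblasts than in ductal cells, where 24% and 23% of genes were, 1 was higher than in mesothelial cells (5.69% of genes), 3 than in endothelial cells (21.2%) and 3 than in macrophages (26.4%). Without 1-library clusters 1 ligand of 7 was higher in fibroblasts than in mesothelial cells (11.4%). With IPI-926 libraries alone 0 of 9 were (0.644%), and 2 were higher than in perivascular cells (2.61%). Leaving out 1 library gave 0 to 3 ligands higher in fibroblasts than in mesothelial cells, 0 without vehicle replicate 3 (6% of genes), 1 without vehicle replicate 1 (6.15%) and 1 without IPI-926 replicate 3 (10% of genes). Perivascular cells with at least 50 cells a library were not run, since too few libraries remained. No paired analysis was possible because the replicate numbers follow accession order and pair no mice.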

Other observations

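Lymphatic endothelial-like cells had at least 20 cells in 1 library, vehicle replicate 1, with 25 cells. Wnt4 there was at 248 CPM from 91 UMIs (95% exact Poisson interval 199 to 304, counting error only), against 10.8 CPM (6.39 to 17.0) in the 267 blood endothelial-like cells of the same library. Summed mesothelial markers were 245 CPM in the lymphatic cells, 77.9 CPM in the endothelial cells and 2369 CPM in mesothelial cells of that library, whose Wnt4 was at 548 CPM. Summed fibroblast markers were 577, 405 and 22256 CPM in the same order. The part of either marker set in the result was not tested. Over all libraries the class held 137 Wnt4 UMIs in 73 cells and 1125570 UMIs. Vehicle replicate 1 gave 91 of these from 367508 UMIs, so its level was above that of the other libraries pooled. Those had under 20 cells each, and 1 library gives no replicate.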
